A study of Homo sapiens with 6 samples.

Results

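The genes described here encode the protein-folding machinery of the cytosol and of mitochondria. They are 48 named chaperones, co-chaperones and heat shock factors, taken from the deposited gene table by symbol, and they fill 49 of its 58735 gene rows because HSPA14 has 2 rows. All 49 rows passed the filter on low values (at least 0.5 FPKM in 3 or more libraries), as did 14847 rows in all. FPKM is a read number adjusted for the length of the gene and the depth of its library. The cells were Huh7, an established human liver cancer line, sequenced as 3 shTRIM15 libraries (a short hairpin RNA against TRIM15, an E3 ubiquitin ligase) and 3 shcontrol libraries (a control hairpin). All 6 were grown alike in RPMI-1640 medium with serum, and no drug or heat treatment is given for either group. The sources used here give neither how many hairpins or cell clones were used nor whether replicates are separate cultures, so p-values measure only the spread between these libraries.

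HSP70 proteins bind unfolded stretches of other proteins. They work with J proteins, which bring the client and switch on the HSP70 ATPase, and with exchange factors such as HSP110 and BAG proteins, which release it. HSP90 takes over many signalling proteins with the help of co-chaperones, the CCT ring folds actin and tubulin delivered by prefoldin, and mitochondria have their own HSP70, an HSP60 and HSP10 chamber, and quality-control proteases. In stressed cells the transcription factor HSF1 binds heat shock elements in the promoters of the inducible chaperones.

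Depth was 17332508 to 19556855 reads in shTRIM15 libraries and 17715210 to 18217903 reads in shcontrol libraries, counted back from the FPKM values. TRIM15 itself averaged 2.62 ± 0.563 FPKM in shTRIM15 and 5.05 ± 0.147 FPKM in shcontrol (SD, n = 3 each), 51.8% of control, with reads of 153, 105 and 111 against 235, 226 and 223. Its exact permutation p was 0.1, the smallest that 3 against 3 libraries allow, and the adjusted p from the fit over all genes was 0.00416. Of 9 liver markers, the highest was ALB (albumin), at 928 ± 10.3 FPKM in shTRIM15 and 899 ± 10.2 FPKM in shcontrol (SD, n = 3 each). The lowest was TTR, at 6.83 ± 0.496 FPKM in shTRIM15 and 7.02 ± 0.858 FPKM in shcontrol. TF was called lower, at 37.5 ± 0.392 FPKM in shTRIM15 and 40.0 ± 0.336 FPKM in shcontrol (adjusted p = 0.0248 from the same fit). The other 8 were not called. The summed level of the 9 liver markers was 1344 to 1370 FPKM in shTRIM15 and 1312 to 1341 FPKM in shcontrol. High enough to test were 3 of 6 fibroblast, 0 of 4 endothelial and 1 of 5 immune markers (CD14); PTPRC was too low, and CDH5 was listed at 0 in all 6 libraries. The fibroblast markers summed to 7.78 to 8.18 FPKM in shTRIM15 and 8.45 to 8.90 FPKM in shcontrol, the endothelial markers to 0.251 to 0.398 and 0.307 to 0.433 FPKM, and the immune markers to 13.4 to 14.2 and 13.4 to 14.6 FPKM. Mitochondrial reads were 3.75 to 3.85% of reads in shTRIM15 libraries and 4.04 to 4.09% in shcontrol libraries; their part in the results below was not tested.

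The chaperone transcripts moved in both directions and by small amounts. Of the 49 rows, 8 were higher and 9 lower in shTRIM15 at an adjusted p under 0.05, and 32 were not called. Among all tested genes 8.93% were higher and 10.1% lower, 19.0% in all. The chaperones are abundant, with a median level of 47.3 FPKM against 4.71 FPKM for all tested genes. Among genes averaging at least 10 FPKM, 35.7% were called, and 15 of the 42 chaperone rows at that level were called, which is the same share. The median log2 fold change was 0.01 for the chaperones and 0.00 for all tested genes. The groups did not overlap in 24 of the 49 rows, where 37.8% of all tested genes showed no overlap. The share without overlap among genes averaging at least 10 FPKM was not worked out, so no excess is read from this count.

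**Figure D1:**
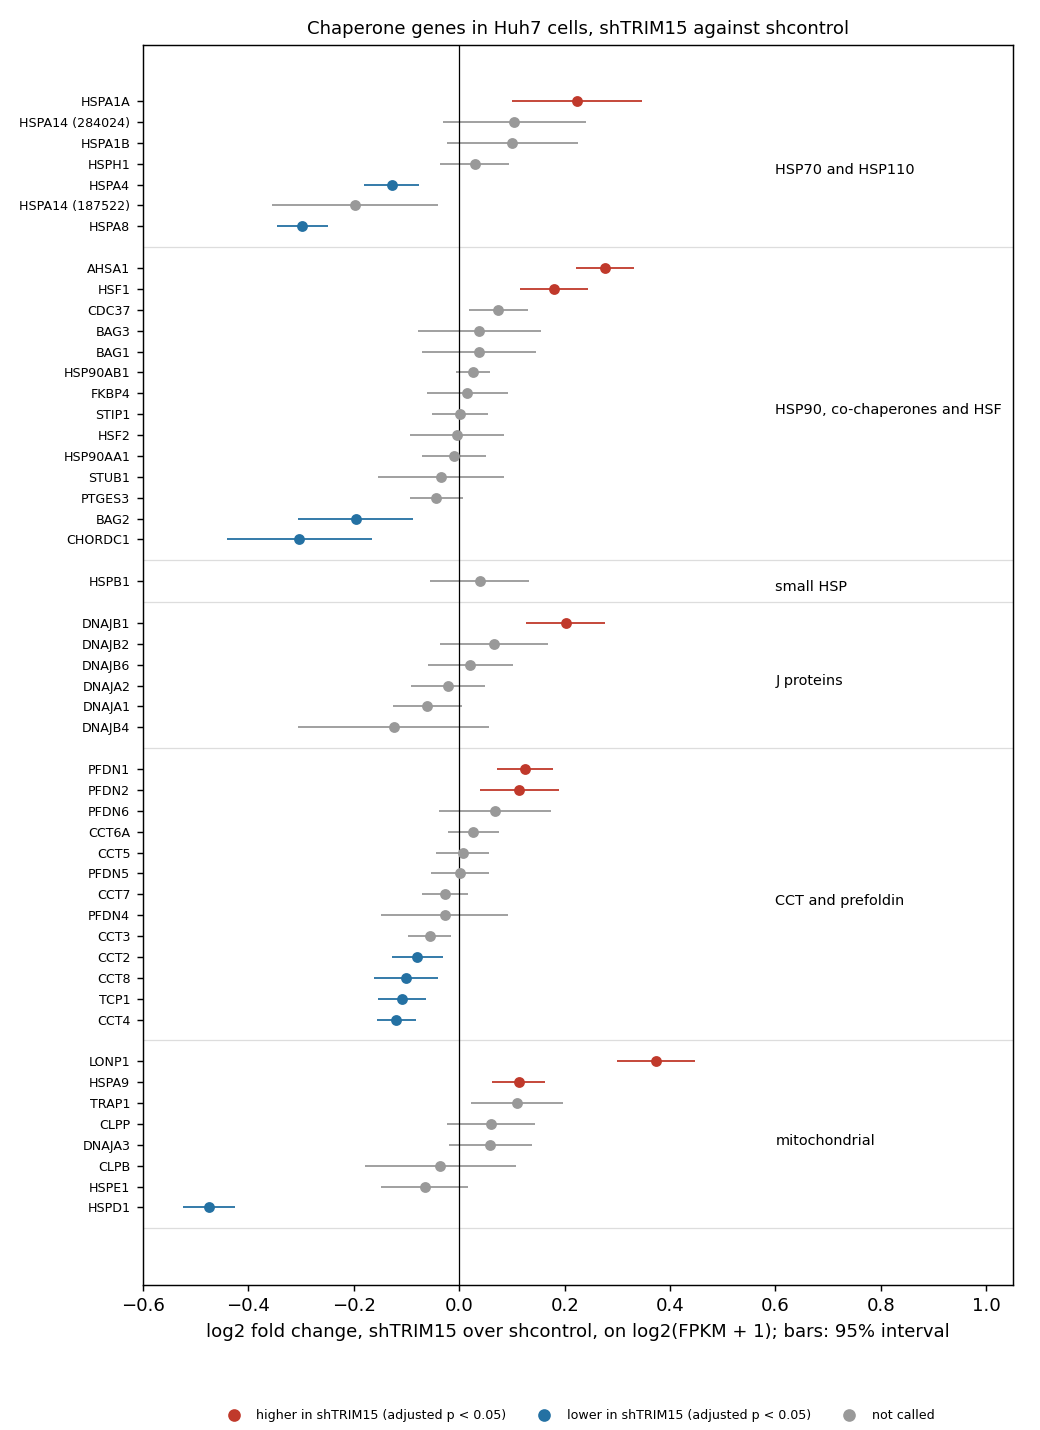
Log2 fold change of each chaperone row, shTRIM15 over shcontrol, on the log2(FPKM + 1) scale, grouped by family, with 95% intervals from the fit over all genes. HSPD1 (-0.47) and LONP1 (0.37), both mitochondrial, lie at the ends; the 8 rows called higher are red, the 9 called lower are blue and the 32 not called are grey.

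Heat shock elements were looked for because they are the sites through which HSF1 acts on inducible chaperone genes. The word searched was 3 alternating units of GAA and TTC, each pair parted by 2 bases of any kind (GAA, NN, TTC, NN, GAA or TTC, NN, GAA, NN, TTC, which covers both strands). RefSeq promoter windows of GRCh38.p14, from 250 bases before to 50 bases after each annotated start, were at hand for 41 of the 48 genes. The word was found for 7 of these 41 and for 0.608% of the 27305 genes with a window. Among the 7, HSPA8, HSPD1 and CHORDC1 fell in shTRIM15, and HSP90AA1, HSP90AB1, DNAJA1 and DNAJB6 were not called. The 3-unit word was thus held by 0 of the 6 higher, 3 of the 9 lower and 4 of the 26 uncalled members with a window. A shorter 2-unit word, which 16.2% of all genes with a window hold, was held by 3 of the 6 higher (HSPA1A, DNAJB1 and HSPA9), 7 of the 9 lower and 9 of the 26 uncalled members. These counts are small, and a link between either word and the direction of a gene was not tested. HSPA6, a stress-inducible HSP70 gene outside the 48, also held the 3-unit word. A match is a stretch of letters and not a measured binding event. A gene without a match may still hold a site, since the search took only exact units inside the windows.

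The stretches whose words lie wholly before a start, which leaves out DNAJA1, are shown on the strand of the gene, with every 3-unit word in capitals, to show how long the run of units is in the genes that fell (first 4) and in those that did not. Of those shown CHORDC1 has the longest run, with 3 overlapping words.
HSPA8, chr11:123062334-123062386, minus strand: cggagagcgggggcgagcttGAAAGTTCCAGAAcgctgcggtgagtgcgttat
HSPA8, chr11:123062159-123062211, minus strand: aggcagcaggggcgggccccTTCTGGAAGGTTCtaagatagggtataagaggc
CHORDC1, chr11:90223067-90223129, minus strand: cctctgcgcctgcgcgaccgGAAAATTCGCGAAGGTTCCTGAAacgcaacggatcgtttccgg
HSPD1, chr2:197500048-197500090, minus strand: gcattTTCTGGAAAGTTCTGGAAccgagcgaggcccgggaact
HSP90AB1, chr6:44247758-44247810, plus strand: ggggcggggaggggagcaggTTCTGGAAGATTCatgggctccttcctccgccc
HSP90AB1, chr6:44247811-44247863, plus strand: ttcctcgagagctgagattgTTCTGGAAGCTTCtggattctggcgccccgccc
HSP90AA1, chr14:102087100-102087152, minus strand: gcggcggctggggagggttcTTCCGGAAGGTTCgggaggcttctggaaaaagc
DNAJB6, chr7:157336853-157336905, plus strand: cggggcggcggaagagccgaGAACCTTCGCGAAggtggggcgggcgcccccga
HSPA6, chr1:161524446-161524498, plus strand: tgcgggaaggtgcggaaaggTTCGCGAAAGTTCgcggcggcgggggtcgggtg

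In the HSP70 and HSP110 family, the constitutive HSPA8 fell and the inducible HSPA1A rose, while the inducible copy HSPA1B was not called. HSPA8 (HSC70, the housekeeping cytosolic HSP70; GRCh38 chromosome 11, 123057489 to 123063230) had 348, 361 and 354 FPKM in shTRIM15 libraries, against 432, 433 and 443 FPKM in shcontrol libraries. Every shTRIM15 library lay below every shcontrol library, at 81.3% of control on average. HSPA8 thus fell by 0.30 on the log2 scale (SE 0.0203, adjusted p = 0.000304). HSPA1A (the stress-inducible HSP70; chromosome 6, 31815464 to 31817946) had 38.7, 35.8 and 36.4 FPKM in shTRIM15 libraries, against 34.1, 30.1 and 30.5 FPKM in shcontrol libraries. The groups did not overlap, but the highest shcontrol library stood close to the lowest shTRIM15 library. HSPA1A rose by 0.22 on the log2 scale (SE 0.0521, adjusted p = 0.0269), and leaving out 1 library ended this call for 5 of the 6 libraries. The call also ended in the limma fits with no filter on low values (adjusted p = 0.0829) and without a variance trend (adjusted p = 0.0607). HSPA1A was at 0.104 ± 0.00609 times the level of HSPA8 in shTRIM15 and 0.0725 ± 0.00562 times in shcontrol (SD, n = 3; exact permutation p = 0.1, the smallest possible, and 0.2 adjusted over the 4 ratios compared).

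HSPA1B encodes the same inducible HSP70 from a neighbouring copy of the gene. Its values were 17.0, 18.3 and 18.5 FPKM in shTRIM15 libraries, against 17.3, 15.5 and 17.3 FPKM in shcontrol libraries. These groups overlapped, and the log2 fold change of 0.10 was not called (95% interval -0.02 to 0.22). Of all 100-base words in HSPA1A transcripts, 67.3% also occur in another gene, mostly HSPA1B, and of those in HSPA1B 72.7% occur elsewhere, mostly in HSPA1A. The split between the copies is uncertain, since the handling of shared reads is not stated in the labels. HSPA1B also shares 36.5% of its exon bases with AL671762.1 on the same strand, a row listed at 0 FPKM in both groups. The part of this overlap in the HSPA1B values was not tested. Summed to 1 row, the pair rose by 0.18 on the log2 scale (adjusted p = 0.0248). The ratio of HSPA1A to HSPA1B was 2.06 ± 0.179 in shTRIM15 and 1.89 ± 0.112 in shcontrol (exact permutation p = 0.3, and 0.4 adjusted over the 4 ratios).

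The promoters of the pair are shown for the 150 bases before each start, because they are nearly alike although the counts differ. With a shift of 1 base, 141 of 149 aligned bases are identical, and each holds 1 word of 2 units (GAA, NN, TTC), in capitals.
HSPA1A, chr6:31815393-31815542, plus strand: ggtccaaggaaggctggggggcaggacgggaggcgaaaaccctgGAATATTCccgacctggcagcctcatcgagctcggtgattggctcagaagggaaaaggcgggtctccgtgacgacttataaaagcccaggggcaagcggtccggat
HSPA1B, chr6:31827588-31827737, plus strand: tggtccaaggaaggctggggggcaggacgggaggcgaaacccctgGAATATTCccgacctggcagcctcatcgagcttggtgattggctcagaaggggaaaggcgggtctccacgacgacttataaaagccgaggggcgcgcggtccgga

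HSPA6, the strictly inducible HSP70B', was near the limit of detection and rose. It had 26, 38 and 31 reads in shTRIM15 libraries, against 4, 1 and 5 reads in shcontrol libraries. All shTRIM15 counts were above all shcontrol counts. The summed reads were 95 and 10, a ratio of 9.11 after scaling to library size (95% interval 4.74 to 19.6, from an exact binomial interval that covers counting error only). Its level was only 0.581 to 0.811 FPKM in shTRIM15 libraries. HSPA6 passed the filter on low values through the shTRIM15 libraries alone, so the test had to find a difference. The log2 fold change on the log2(FPKM + 1) scale was 0.67 (adjusted p = 0.00646), which understates the ratio at this level. Of its 100-base words, 27.6% also occur in another gene, mostly the pseudogene HSPA7, which was listed at 0 in all libraries.

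HSPA4 (an HSP110 that exchanges nucleotide on HSP70; chromosome 5, 133051962 to 133106449) had 58.0, 59.0 and 57.8 FPKM in shTRIM15 libraries, against 63.5, 62.7 and 65.1 FPKM in shcontrol libraries. It was lower in all 3 shTRIM15 libraries, with a log2 fold change of -0.13 (SE 0.0218, adjusted p = 0.0085). HSPH1, the heat-inducible HSP110, averaged 35.4 ± 1.03 FPKM in shTRIM15 and 34.7 ± 0.463 FPKM in shcontrol (SD, n = 3) and was not called (95% interval of the log2 fold change -0.04 to 0.09). HSPA14, a ribosome-associated HSP70, has 2 rows that share 460 exon bases. One row averaged 7.04 ± 0.598 FPKM in shTRIM15 and 8.22 ± 0.536 FPKM in shcontrol, and the other 7.03 ± 0.265 FPKM in shTRIM15 and 6.47 ± 0.509 FPKM in shcontrol; neither was called, and the split of shared reads between them is uncertain. HSPA8 carries most of the family's transcript. The summed level of the 7 rows was 511 to 525 FPKM in shTRIM15 libraries and 589 to 607 FPKM in shcontrol libraries.

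**Figure D2:**
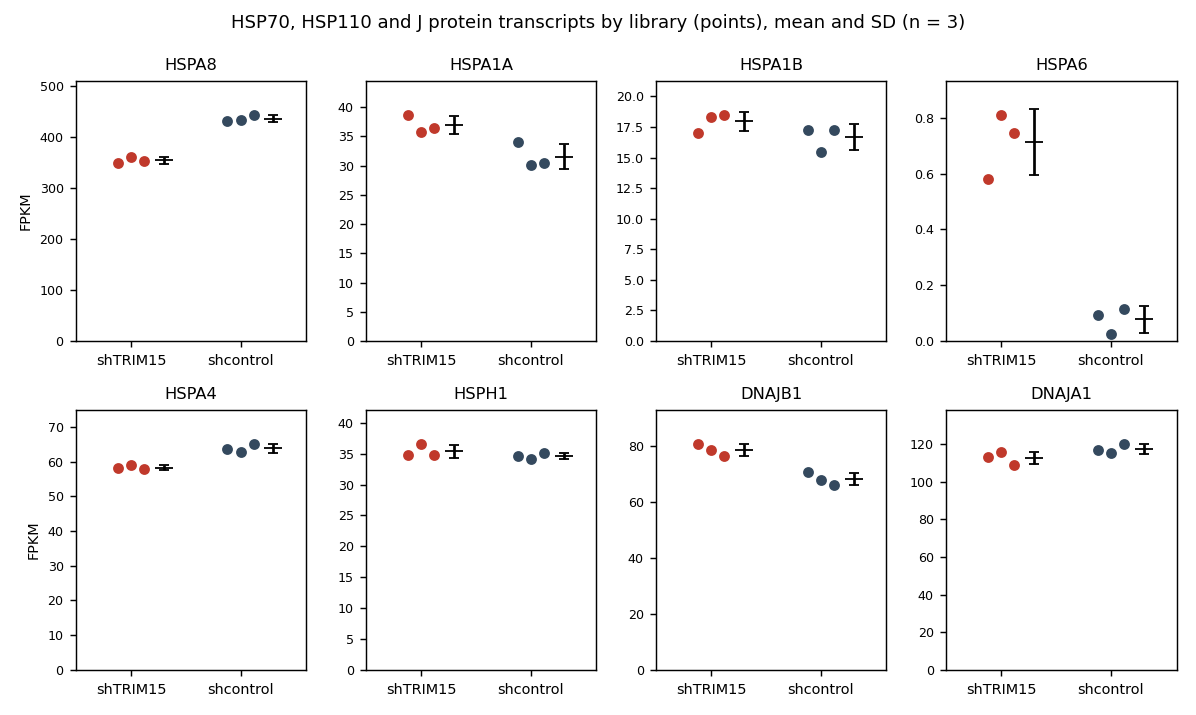
FPKM of HSP70, HSP110 and J protein genes in each library (points; red shTRIM15, dark grey shcontrol), with the group mean and SD (n = 3) as bars; each axis starts at 0. HSPA8 and HSPA4 are lower in shTRIM15, HSPA1A, HSPA6 and DNAJB1 are higher, and the groups overlap for HSPA1B, HSPH1 and DNAJA1.

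Among J proteins, DNAJB1 (HSP40, the heat-inducible partner of HSP70; chromosome 19, 14514770 to 14529770) rose. It had 80.7, 78.6 and 76.3 FPKM in shTRIM15 libraries, against 70.5, 67.8 and 66.1 FPKM in shcontrol libraries. The groups were clearly apart, with a log2 fold change of 0.20 (SE 0.0315, adjusted p = 0.00623). DNAJA1, the most abundant J protein here and a partner of HSPA8, had 113, 116 and 109 FPKM in shTRIM15 libraries, against 117, 115 and 120.1 FPKM in shcontrol libraries. Those groups overlapped and DNAJA1 was not called (log2 fold change -0.06, 95% interval -0.13 to 0.01). The other 4 J proteins (DNAJA2, DNAJB2, DNAJB4 and DNAJB6) averaged 5.01 to 16.9 FPKM in shTRIM15 and 5.53 to 17.0 FPKM in shcontrol, and 0 of 4 were called by limma (log2 fold changes -0.12 to 0.07). At an unadjusted p under 0.05 the count was also 0, as it was for voom, a limma fit on whole reads. HSPB1, the small heat shock protein HSP27, had 269, 264 and 276 FPKM in shTRIM15 libraries, against 278, 261 and 249 FPKM in shcontrol libraries. Its shcontrol libraries spanned the whole range of the shTRIM15 libraries, and it was not called.

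The HSP90 genes themselves did not pass the threshold. HSP90AB1, the constitutive cytosolic HSP90, had 649, 643 and 644 FPKM in shTRIM15 libraries, against 633, 633 and 634 FPKM in shcontrol libraries. The groups did not overlap, but the difference was 0.03 on the log2 scale (95% interval -0.01 to 0.06). HSP90AA1, the inducible form, had 268, 282 and 268 FPKM in shTRIM15 libraries, against 269.6, 276 and 277 FPKM in shcontrol libraries. Its groups overlapped (95% interval of the log2 fold change -0.07 to 0.05). The ratio of HSP90AA1 to HSP90AB1 was 0.422 ± 0.0147 in shTRIM15 and 0.433 ± 0.00618 in shcontrol (SD, n = 3; exact permutation p = 0.4, before and after adjustment over the 4 ratios).

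HSP90 co-chaperones moved in both directions. AHSA1 (AHA1, the activator of the HSP90 ATPase; chromosome 14, 77457870 to 77469474) had 54.7, 53.1 and 54.8 FPKM in shTRIM15 libraries, against 43.8, 45.07 and 44.96 FPKM in shcontrol libraries. It was higher in all 3 shTRIM15 libraries, at 122% of control (log2 fold change 0.28, SE 0.0232, adjusted p = 0.000635). CHORDC1 (morgana, an HSP90 co-chaperone with zinc-binding CHORD domains; chromosome 11, 90201160 to 90223364) had 7.87, 7.98 and 7.13 FPKM in shTRIM15 libraries, against 9.25, 9.40 and 10.4 FPKM in shcontrol libraries. It was lower in all 3 shTRIM15 libraries, at 79.1% of control (log2 fold change -0.30, SE 0.0579, adjusted p = 0.0129). CDC37, which brings kinases to HSP90, averaged 99.2 ± 2.42 FPKM in shTRIM15 and 94.1 ± 1.22 FPKM in shcontrol without overlap, and missed the threshold (adjusted p = 0.0715; 0.00515 with voom). Voom took another library size than the FPKM values, and the part of this in its CDC37 value was not tested. STIP1 (HOP, the bridge between HSP70 and HSP90), PTGES3 (p23), FKBP4 (FKBP52) and the ubiquitin ligase STUB1 (CHIP) were not called, with log2 fold changes of -0.04 to 0.02. STUB1 shares 42.4% of its exon bases with JMJD8 on the opposite strand, which averaged 16.4 ± 0.182 FPKM in shTRIM15 and 15.1 ± 1.29 FPKM in shcontrol. Reads of STUB1 and JMJD8 may not be told apart, since the strand setting of the counting is not stated.

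Of the BAG proteins, which release clients from HSP70, BAG2 (chromosome 6, 57172326 to 57189833) had 5.99, 6.11 and 5.69 FPKM in shTRIM15 libraries, against 7.33, 6.82 and 6.68 FPKM in shcontrol libraries. It was lower in all 3 shTRIM15 libraries (log2 fold change -0.20, SE 0.0459, adjusted p = 0.0265), a call that ended without any 1 of 5 of the 6 libraries. BAG2 shares 42.7% of its exon bases with RAB23 on the opposite strand, which averaged 2.53 ± 0.133 FPKM in shTRIM15 and 2.16 ± 0.143 FPKM in shcontrol. The labels do not state whether counting used strand, so reads of the 2 genes may not be told apart. BAG1 and the heat-inducible BAG3 were not called (log2 fold change 0.04 for each).

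Of the transcription factors, HSF1 (the main heat shock factor; 144291591 to 144314722 of chromosome 8) had 17.1, 17.8 and 17.6 FPKM in shTRIM15 libraries, against 15.4, 15.5 and 15.2 FPKM in shcontrol libraries. The groups were well apart, with a log2 fold change of 0.18 (SE 0.0273, adjusted p = 0.00555). HSF2 averaged 10.9 ± 0.287 FPKM in shTRIM15 and 10.98 ± 0.432 FPKM in shcontrol and was not called (95% interval of the log2 fold change -0.09 to 0.09). HSF1 activity depends on the protein's trimer form and phosphorylation, which were not measured.

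The CCT ring has 8 different subunits, and 4 of the 8 fell, by 0.08 to 0.12 on the log2 scale; 0 rose by limma, by voom or at an unadjusted p under 0.05. All 8 average at least 10 FPKM, a level at which 35.7% of tested genes were called, and with so few subunits nothing particular to the ring is read from the count. TCP1 (CCT1; chromosome 6, 159778498 to 159789749) had 93.8, 95.2 and 93.3 FPKM in shTRIM15 libraries, against 101, 101 and 103 FPKM in shcontrol libraries. CCT4 (chromosome 2, 61868089 to 61888804) had 126, 126 and 126 FPKM in shTRIM15 libraries, against 137, 136 and 137 FPKM in shcontrol libraries. Both were lower without overlap, with log2 fold changes of -0.11 (SE 0.019, adjusted p = 0.00944) and -0.12 (SE 0.0155, adjusted p = 0.00314). CCT2 had 145, 144 and 142 FPKM in shTRIM15 libraries, against 149.8, 151 and 156 FPKM in shcontrol libraries. CCT8 had 133, 133 and 136 FPKM in shTRIM15 libraries, against 139, 146 and 146 FPKM in shcontrol libraries. Both were also lower without overlap, but closer to the threshold (log2 fold changes -0.08 and -0.10, adjusted p = 0.0366 and 0.0348), and each of these calls ended without any 1 of 5 of the 6 libraries.

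The other CCT subunits were not called. CCT3 had 161, 159 and 162 FPKM in shTRIM15 libraries, against 167, 165 and 169 FPKM in shcontrol libraries, without overlap (adjusted p = 0.0625). CCT6A, the highest subunit in every library, had 189.8, 193 and 189.9 FPKM in shTRIM15 libraries, against 184, 186 and 192 FPKM in shcontrol libraries, and these overlapped. CCT7 and CCT5 overlapped as well, with log2 fold changes of -0.03 and 0.01. CCT5 was the lowest subunit in every library. It shares 30.1% of its exon bases with AC012640.4 on the opposite strand (0.00662 ± 0.0115 FPKM in shTRIM15 and 0.0220 ± 0.0222 FPKM in shcontrol). The strand setting of the counting is not stated, and the part of this overlap in the CCT5 level was not tested. The highest subunit was 2.69 to 2.83 times the lowest in shTRIM15 libraries and 2.67 to 2.73 times in shcontrol libraries. The summed ring level was 1079 to 1082 FPKM in shTRIM15 libraries and 1113 to 1135 FPKM in shcontrol libraries. TCP1 lies head to head with MRPL18, a mitochondrial ribosomal protein gene, their annotated ends parted by 63 bases. MRPL18 was lower too, at 67.2 ± 0.906 FPKM in shTRIM15 and 76.7 ± 0.756 FPKM in shcontrol (SD, n = 3; log2 fold change -0.19, adjusted p = 0.00141). CCT4, CCT5, CCT6A and CCT7 also have a head-to-head neighbour: COMMD1, FAM173B, PSPH and PRADC1 in turn. These neighbours were not called (log2 fold changes -0.01 to 0.08), although CCT4 fell. A link within such pairs was not tested. TCP1 also shares 8.05% of its exon bases with ACAT2 on the opposite strand (38.8 ± 0.512 FPKM in shTRIM15 and 36.8 ± 1.29 FPKM in shcontrol).

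Of prefoldin, the 6-subunit jellyfish-shaped holder that passes clients to CCT, PFDN1 and PFDN2 were higher and VBP1 was lower. Among tested genes averaging at least 10 FPKM, 35.7% were called, and nothing particular to prefoldin is read from so few subunits. PFDN1 (chromosome 5, 140245039 to 140303121) had 35.0, 34.0 and 34.8 FPKM in shTRIM15 libraries, against 31.5, 31.5 and 32.0 FPKM in shcontrol libraries. PFDN2 had 85.1, 85.3 and 89.1 FPKM in shTRIM15 libraries, against 77.4, 79.3 and 82.9 FPKM in shcontrol libraries. Both were higher without overlap, PFDN1 by 0.12 (SE 0.0227, adjusted p = 0.0108) and PFDN2 by 0.11 (SE 0.0317, adjusted p = 0.048) on the log2 scale. The call of PFDN2 ended without any 1 of 5 of the 6 libraries. PFDN4, PFDN5 and PFDN6 overlapped between groups and were not called (log2 fold changes -0.03 to 0.07). VBP1, the prefoldin 3 subunit, which was not among the 48 genes, was lower in all 3 shTRIM15 libraries, at 31.6, 32.0 and 29.1 FPKM against 36.3, 36.7 and 38.4 FPKM in shcontrol libraries (log2 fold change -0.26, adjusted p = 0.00659).

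**Figure D3:**
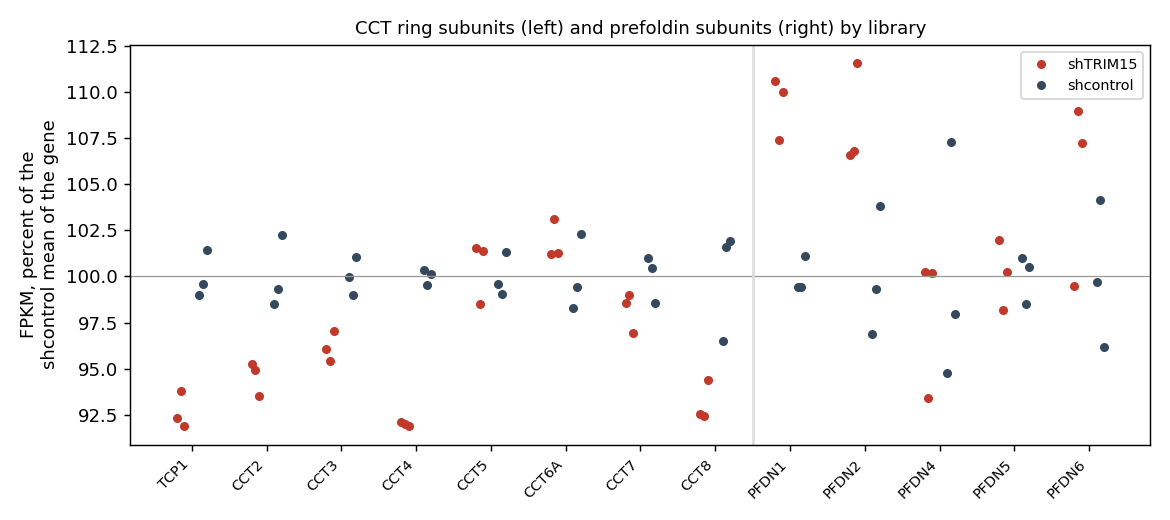
Level of each CCT subunit (left of the line) and prefoldin subunit (right) in each library, as a percentage of the gene's shcontrol mean; red points are shTRIM15, dark points shcontrol, and the axis does not start at 0. TCP1, CCT2, CCT3, CCT4 and CCT8 lie below their shcontrol libraries in shTRIM15, and PFDN1 and PFDN2 above theirs.

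The mitochondrial genes held both the largest fall and the largest rise of all 49 rows. HSPD1 (HSP60, the mitochondrial chaperonin; chromosome 2, 197486581 to 197516737) had 158, 156 and 156 FPKM in shTRIM15 libraries, against 213, 219 and 223 FPKM in shcontrol libraries. All 3 shTRIM15 libraries lay far below the shcontrol libraries, at 71.8% of control (log2 fold change -0.47, SE 0.0209, adjusted p = 0.000119). HSPE1 (HSP10, the lid of the HSP60 chamber) had 68.2, 66.3 and 65.8 FPKM in shTRIM15 libraries, against 69.3, 73.5 and 67.2 FPKM in shcontrol libraries. These groups overlapped, and HSPE1 was not called (log2 fold change -0.07, 95% interval -0.15 to 0.02). The intervals of the 2 genes do not meet.

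HSPD1 and HSPE1 stand head to head and share the sequence between them as a promoter; the nearest RefSeq starts lie 105 bases apart. The ratio of HSPD1 to HSPE1 was 2.32, 2.36 and 2.36 in shTRIM15 libraries, against 3.08, 2.98 and 3.31 in shcontrol libraries. The ratio was lower in every shTRIM15 library, with an exact permutation p of 0.1, the smallest possible (0.2 adjusted over the 4 ratios). The stretch printed above for HSPD1 lies between its 2 annotated starts, downstream of the first and ahead of the second. Its end nearer to HSPE1 is 289 bases from the HSPE1 start, outside the HSPE1 window. The 2 genes share 281 exon bases on opposite strands, 14.2% of those of HSPE1 and 6.62% of those of HSPD1. HSPD1 has 17 processed pseudogene rows, whose reads came to 0.991% of its own, and adding them left its log2 fold change at -0.47; the pseudogene rows of HSPE1 came to 149 of its 14867 reads.

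LONP1 (the main protease of the mitochondrial matrix; chromosome 19, 5691834 to 5720572) had 33.6, 35.1 and 34.6 FPKM in shTRIM15 libraries, against 26.7, 27.0 and 25.4 FPKM in shcontrol libraries. It was higher in all 3 shTRIM15 libraries, at 131% of control (log2 fold change 0.37, SE 0.0311, adjusted p = 0.000623). HSPA9 (mortalin, the mitochondrial HSP70 that also drives import; chromosome 5, 138553756 to 138575724) had 72.2, 70.3 and 72.5 FPKM in shTRIM15 libraries, against 65.3, 66.2 and 67.1 FPKM in shcontrol libraries. It was higher without overlap (log2 fold change 0.11, SE 0.0216, adjusted p = 0.0131), but the call ended without shTRIM15 replicate 1 or 3 (adjusted p = 0.0506 and 0.0531). TRAP1, the mitochondrial HSP90, averaged 23.5 ± 0.663 FPKM in shTRIM15 and 21.7 ± 0.876 FPKM in shcontrol without overlap and missed the threshold (adjusted p = 0.0837, and 0.00419 with voom). The part of the other library size used by voom in this last value was not tested. TRAP1 shares 29.3% of its exon bases with DNASE1 on the opposite strand (2.80 ± 0.0710 FPKM in shTRIM15 and 2.62 ± 0.133 FPKM in shcontrol). CLPP (the peptidase of the ClpXP protease), DNAJA3 (TID1, a J protein of HSPA9) and CLPB (a disaggregase) were not called, with log2 fold changes of -0.04 to 0.06. CLPB had the lowest level of all 49 rows, 1.52 ± 0.0660 FPKM in shTRIM15 and 1.58 ± 0.0676 FPKM in shcontrol.

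**Figure D4:**
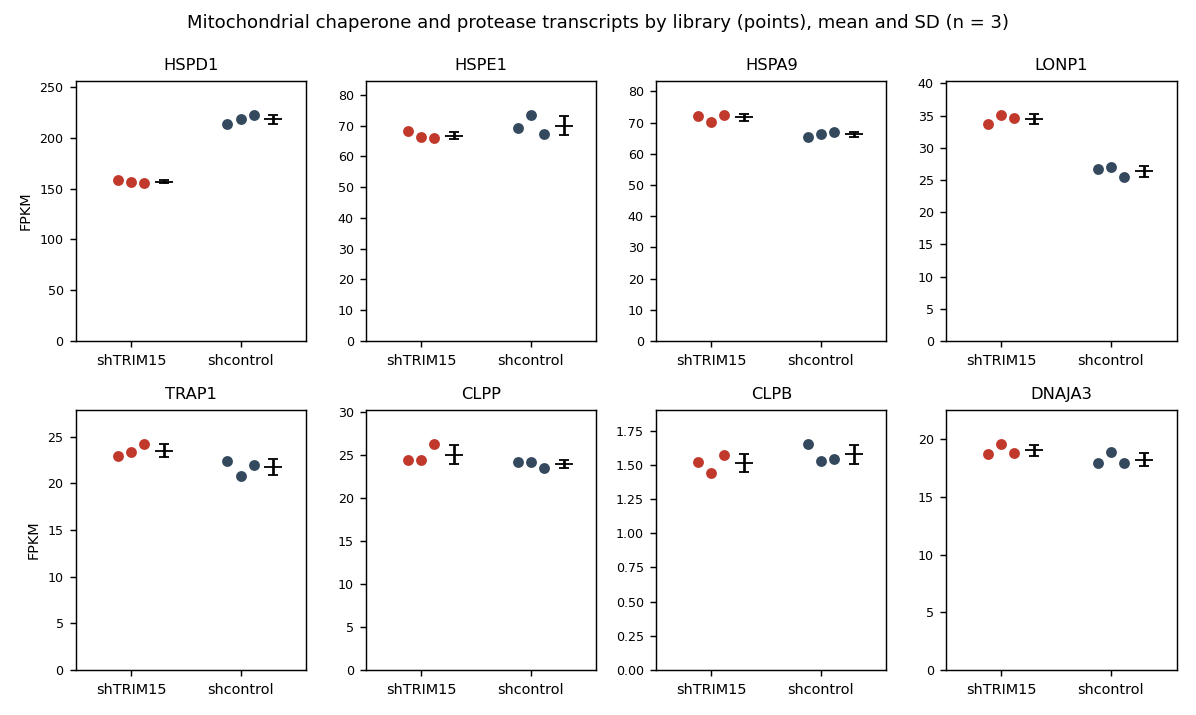
FPKM of the 8 mitochondrial chaperone and protease genes in each library (points; red shTRIM15, dark grey shcontrol), with mean and SD (n = 3) as bars; each axis starts at 0. HSPD1 is lower at 157 against 218 FPKM and LONP1 higher at 34.4 against 26.4 FPKM, while the HSPE1 groups overlap.

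The wider folding network also moved in both directions. A further 117 chaperone and co-chaperone gene rows were listed by function, with 2 rows for TBCE. DNAJC7, HSCB, DNAJC15 and DNAJC19 each count in 2 of the lists below. Of the 117 rows, 95 were tested and 32 were called (33.7%), 18 higher and 14 lower in shTRIM15. Among all tested genes 19.0% were called, and 35.7% among those averaging at least 10 FPKM. The called share of the further rows at that level was not worked out, so no excess is read from these counts. HSPA6 is among the 18, although the filter alone had fixed its direction. Among 8 tested HSP70, HSP110 and small heat shock genes, 2 were higher (HSPA6 and HSPB8) and 1 was lower. That gene, HSPA13, a microsomal HSP70, averaged 8.66 ± 0.263 FPKM in shTRIM15 and 11.4 ± 0.348 FPKM in shcontrol (log2 fold change -0.36, adjusted p = 0.00126). Among 27 tested J proteins, 3 were higher and 4 lower. DNAJC24, which acts in diphthamide synthesis, fell by 0.36 on the log2 scale, the neighbours by size being DNAJC30 (0.31), DNAJB12 (0.27) and DNAJB14 (-0.24).

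Among 27 tested exchange factors and HSP90 co-chaperones, 7 were higher and 3 lower. TOMM34, which joins HSP70 and HSP90 during import of mitochondrial precursors, had 35.5, 36.1 and 34.9 FPKM in shTRIM15 libraries, against 25.4, 24.8 and 26.0 FPKM in shcontrol libraries. It was higher in all 3, at 139.7% of control (log2 fold change 0.47, SE 0.0273, adjusted p = 0.00019). BAG4 (-0.34), the cyclophilin PPID (-0.32) and FLCN (0.22) were the next by size. Among 14 tested CCT, prefoldin and tubulin-folding rows, 2 were higher and 4 lower, among them the CCT cofactor PDCL (-0.32) and the tubulin cofactor TBCC (0.26), besides VBP1. TBCEL also fell (-0.26). Among 15 tested mitochondrial folding and protease genes, 3 were higher and 1 lower. LONP2, the peroxisomal relative of LONP1 (0.29), the HSPA9 exchange factor GRPEL2 (0.24) and the inner membrane protease AFG3L2 (0.16) rose, and the protease YME1L1 fell (-0.21). Among 8 tested genes of the heat shock response, SERPINH1, a collagen chaperone, rose (0.20), and HSBP1, which binds HSF1 (-0.16), and MRPL18 (-0.19) fell. Of the further genes named, the calls of HSPB8, DNAJC30, DNAJB14, FLCN, TBCC, TBCEL, GRPEL2 and AFG3L2 each ended when at least 1 library was left out.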

How the data were processed

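RNA sequencing of 3 shTRIM15 and 3 shcontrol libraries of Huh7 cells was analysed from the gene table the authors deposited, which holds FPKM values with 1 column per library. Per the labels, mRNA was enriched and libraries were made with a directional kit. Aligner, counting tool and strand setting are not given in the sources used here. The submitters' processing notes name build mm10, a mouse build, but all 58735 gene rows match GENCODE 29 on GRCh38 in ID, start, end and strand. Multiplying FPKM by gene length gave steps of equal size within each library, so reads could be counted back; 100% of values came out whole (tolerance 0.01 reads plus 1e-05 of the count).

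Rows reaching 0.5 FPKM in 3 libraries or more (14847) were fitted on log2(FPKM + 1) with limma 3.58.1 in R 4.3.3 (variance trend, two-sided, Benjamini-Hochberg over all rows, threshold 0.05). All adjusted p values come from it unless voom is named. SE and 95% intervals come from the same fit. The log2(FPKM + 1) scale understates fold changes of low genes. Ratios of 2 genes were tested with a two-sided exact permutation test. Members, gene lists and tests were chosen with earlier results of these data known. The rule for named genes gave values in every library for members past the threshold, HSF1 and the 2 highest members of each family, and named at most 4 called further genes per list by size, most by log2 fold change alone. HSPA1B and HSPE1 were added in full after their values were seen. The 4 ratios were chosen after their values were seen. No replicate block was used.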

Additional observations from a re-analysis of the deposited data

How the results depend on the processing

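Of the 17 chaperone calls, 9 held under each alternative run (HSPA8, HSPA4, AHSA1, HSF1, DNAJB1, CCT4, PFDN1, HSPD1 and LONP1), and 8 were lost under at least 1. Same-numbered libraries of the 2 groups did not deviate together (correlations 0.0086 to 0.0133 over genes), so the numbers do not pair them. With replicate number as a block, 8 members were higher and 6 lower, and 1913 genes were called in all; CHORDC1 (adjusted p = 0.0521), CCT2 and CCT8 were the members lost, and no other member's call changed. Without a variance trend 5 members were higher and 6 lower; TCP1 was among those lost (adjusted p = 0.0644). With no filter on low values 1888 genes were called, and with voom 4212. Leaving out 1 library gave 5 to 7 higher and 6 to 8 lower members, and 1770 to 2339 genes called in all. The median of the members was 0.0034 to 0.0087 with 1 library left out and 0.0275 with voom on whole reads. Voom took the sum of the counted reads as library size. The library size behind the FPKM values differed from that sum by 1.04 to 1.27% in shTRIM15 libraries. In shcontrol libraries it differed by -0.37 to -0.36%. The part of this group difference in the voom values and calls was not tested. TRIM15 ranged from -0.87 to -0.65 with 1 library left out. With voom, HSP90AB1, CDC37 and TRAP1 were also called higher. Some members that were never called changed sign: HSP90AA1 (0.0132) and HSF2 (0.0172) with voom, and with 1 library left out HSP90AA1 (-0.0347 to 0.00343), STIP1 (-0.0125 to 0.0184), FKBP4 (-0.0132 to 0.0307), STUB1 (-0.0935 to 0.00359), HSF2 (-0.0221 to 0.0255), DNAJB6 (-0.00193 to 0.0395), CCT5 (-0.00093 to 0.0206), PFDN4 (-0.0635 to 0.0218) and PFDN5 (-0.0113 to 0.0155). Of the 32 further genes called, 15 held under each alternative in which they were tested. HSPA6 is among the 15, although the filter alone had fixed its direction. The 2 planned count-model fits on whole reads were not run, because the deposited unit is FPKM. Depth limits HSPA6, with at most 5 reads in any shcontrol library, and no group is large enough for an exact test below 0.1.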
